A study of Mus musculus with 2 samples.

Results

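Cck and 9 other neuropeptide precursor genes, namely Npy, Penk, Pomc, Tac1, Sst, Vip, Gal, Nts and Adcyap1, were examined in mRNA-seq data from mouse embryonic fibroblasts (MEFs). These 10 genes are 10 of 20906 entries with a gene symbol in the deposited table of 29126 entries. Cck was chosen by its own RPKM values in these 2 libraries, as it has one of the largest increases from Dnmt1+/+ to Dnmt1-/- MEFs, so its values are given as a description. The other 9 genes are well-known members of the same functional class, and each was found as 1 entry.

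Each genotype, Dnmt1+/+ and Dnmt1-/-, is represented by 1 library, and no age, treatment or time point is given for either. Cells of the second kind carry a hypomorphic allele of Dnmt1, the maintenance DNA methyltransferase, on both chromosomes, and are called Dnmt1-/- here as in the labels. Both lines are also homozygous null for Trp53, which encodes p53, so loss of p53 is shared by the control. The strain is given as unknown, and how many embryos or clones stand behind each line is not given in the sources used here, so a difference between genotypes and a difference between these 2 lines cannot be told apart. Values are in RPKM, a read number scaled to transcript length and library size. As no library has a replicate, no test was made, and the words higher and lower describe these 2 libraries. In bulk RNA, more cells that express a gene and more RNA per cell cannot be told apart.

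Neuropeptides are short signalling peptides that are cut from longer precursor proteins, stored in dense core vesicles and released from neurons and endocrine cells. The precursor is cleaved at pairs of basic residues by prohormone convertases, trimmed by carboxypeptidase E and, in many peptides, amidated at the C terminus by Pam, after which the peptide acts on G protein-coupled receptors. Cholecystokinin, the product of Cck, is made by intestinal endocrine cells and by many neurons, where it regulates gallbladder contraction, pancreatic secretion and satiety. Fibroblasts are not a classical source of these peptides.

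The genotype labels were first compared with the level of Dnmt1, 65.2 RPKM in Dnmt1+/+ against 14.5 in the Dnmt1-/- library, a change of -2.16 on the log2(RPKM + 0.1) scale. Trp53 RNA was at 18.6 and 19.9 RPKM. Genes were kept for counting if they had a symbol, the status OK (enough reads for quantification by Cuffdiff, the program that computed the RPKM values) and at least 1 RPKM in one library or the other. This left 11244 genes, whose median change was -0.14, and the median RPKM was 11.3 in Dnmt1+/+ and 10.3 in Dnmt1-/-. Of 14 fibroblast markers 12 were kept, with Col1a1, a chain of type I collagen, at 1448 and 898 RPKM and the intermediate filament gene Vim at 2269 and 1873 RPKM. Thy1, a surface marker of fibroblasts, was at 4.84 and 0.129 RPKM, and S100a4, another fibroblast marker, at 290 and 1262. Of the 12 kept markers 2 were higher and 4 lower by more than 2-fold, with a median change of -0.48, and the 14 levels summed to 6980 and 5551 RPKM. Besides S100a4, the higher one was Pdgfra at 6.95 and 18.7 RPKM. Besides Thy1, the lower ones were Postn at 177 and 13.7, Fn1 at 664 and 235, and Col1a2 at 1241 and 476 RPKM.

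The files hold no read counts, but low values fall into steps that show the depth. Among low entries of genes with 1 annotated coding transcript of 1 to 6 kb, 63 of 339 in Dnmt1+/+ and 75 of 433 in Dnmt1-/- lay around the first step. On a transcript of 1 kb this step was 0.0181 RPKM in Dnmt1+/+ and 0.0163 RPKM in Dnmt1-/-, which is taken here as the worth of 1 read. Read numbers given below are estimates from these steps and from annotated transcript lengths, and they cover neither the true length of the transcripts in these cells nor any error.

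Of the 10 neuropeptide genes, 2 (Cck and Penk) reached 1 RPKM, both in the Dnmt1-/- library and neither in Dnmt1+/+. The other 8 were below 0.1 RPKM in both libraries and had the status NOTEST, given by Cuffdiff to entries with too few reads. In comparison, 35.7% of all 20906 named entries were below 0.1 RPKM in both libraries. The 2 genes that passed the filter did so only through the library in which they were higher, so their direction was set by the filter and is not evidence for the class. Both were more than 2-fold higher in Dnmt1-/-, where the shares of all kept genes past 2-fold were 8.47% for higher and 10.9% for lower. On the log2(RPKM + 0.1) scale a gene below 0.1 RPKM in both libraries cannot pass 2-fold in either direction. The other 8 genes thus could not be counted as higher or lower, with or without the filter. Without any filter, 2 of 10 genes compare with 7.23% of all named entries of any status, many of which have the same limit. Of these 2 genes, 1 is the gene for which the set was assembled.

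**Figure D1:**
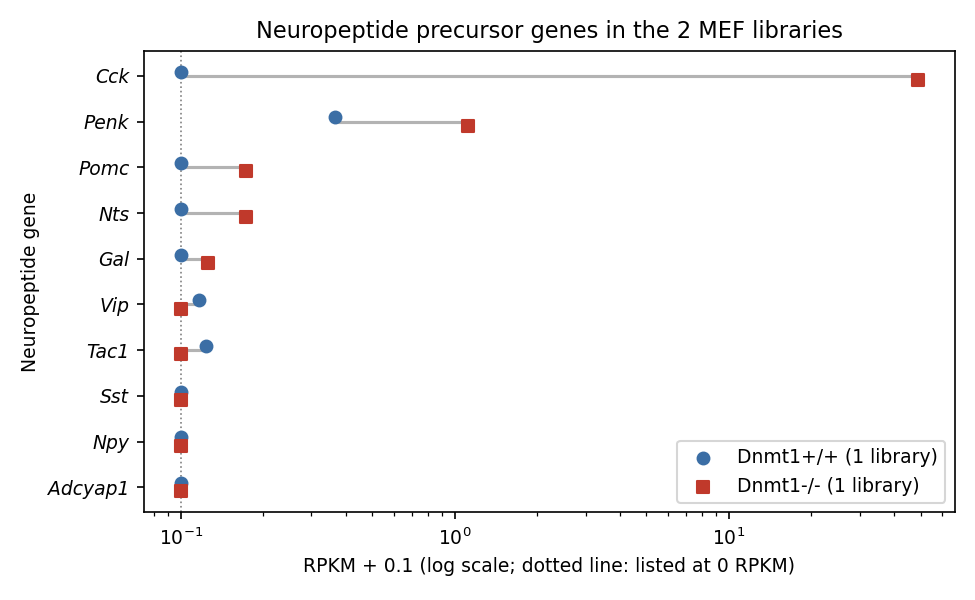
RPKM + 0.1 on a log scale for the 10 neuropeptide precursor genes in Dnmt1+/+ (circles) and Dnmt1-/- MEFs (squares), 1 library each, with a grey line joining both values of a gene and a dotted line at 0 RPKM. Cck lies at 0 in Dnmt1+/+ and at 48.8 RPKM in Dnmt1-/-, Penk moves from 0.264 to 1.01 RPKM, and the other 8 genes stay within 0.1 RPKM of 0.

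Cck (chr9:121398943-121404807 of mm9, minus strand) was the one strongly expressed gene of the 10. Its level was 48.8 RPKM in Dnmt1-/- MEFs, whereas the Dnmt1+/+ library listed it at 0. For its annotated transcripts of 0.685 and 0.798 kb the level in Dnmt1-/- corresponds to about 2054 to 2393 reads, while a single read in Dnmt1+/+ would have been worth between 0.0227 and 0.0265 RPKM. In the Dnmt1-/- library Cck was thus well above the median gene, and its RPKM was higher than that of 86.2% of kept genes. Ordered from the largest rise downward, its change was number 5 among the 11244 kept genes. This place depends on the added 0.1 RPKM, and the size of falls was not ranked with it. No ratio is given, as the value in Dnmt1+/+ is 0. A value of 0 is not proof that RNA was missing, since 591 named entries with status OK were listed at 0 in both libraries.

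Penk, which encodes the precursor of Met- and Leu-enkephalin, is located at chr4:4060678-4065966, also on the minus strand. It went from 0.264 RPKM in Dnmt1+/+ to 1.01 RPKM in Dnmt1-/- MEFs, which is 3.84 times as high and a change of 1.61 on the log2(RPKM + 0.1) scale. These levels correspond to about 10.5 to 21.1 and 44.9 to 90.3 reads for annotated transcripts between 0.721 and 1.45 kb. Even in Dnmt1-/- it was a low transcript, with 5.70% of kept genes below it, and Cck was 48.1 times as high per length in the same library. The 2-fold difference of Penk was lost on the log2(RPKM + 1) scale, where its change was 0.67.

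The remaining 8 genes differed by at most a few reads. Pomc, the precursor of ACTH, melanocortins and beta-endorphin, had 0.0734 RPKM in Dnmt1-/- and 0 in Dnmt1+/+, about 4.54 reads. Nts, the neurotensin precursor, was listed at 0 and had 0.0724 RPKM, about 5.23 reads. Gal, which encodes galanin, was listed at 0 and had 0.0255 RPKM, about 1.11 reads. A low value in the opposite direction was found for Tac1, the precursor of substance P and neurokinin A, at 0.0239 RPKM in Dnmt1+/+ (about 1.30 to 1.36 reads) and 0 in Dnmt1-/-. Vip, encoding vasoactive intestinal peptide, was at 0.0165 RPKM (about 1.39 reads) in Dnmt1+/+ and at 0 in Dnmt1-/-. Npy, an abundant peptide of the brain that stimulates feeding, Sst, encoding somatostatin, and Adcyap1, encoding PACAP, were listed at 0 in both libraries, as were 23.6% of named entries. A difference between the libraries was not detectable for these 8 genes at this depth. By RPKM in Dnmt1-/- the order was Cck, Penk, Pomc, Nts and Gal, with the other 5 listed at 0. Pomc and Nts, next to each other in this order, differed by less than the worth of 1 read.

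As DNA methylation acts on CpG dinucleotides and Cck has been studied as a target of cAMP signalling, the promoter sequences were compared. The RefSeq table of promoters (build GRCm38.p6, used for sequence only) held 9 of the 10 genes, Adcyap1 with 2 starts, and did not include Penk. In the 250 bases before the start, Cck had 9 CpG, and the other windows had between 2 (Nts) and 21 (Npy), while the median of 32851 promoter windows was 6 with quartiles of 2 and 16. The Cck window was thus not at the extremes, with 59.7% of windows having fewer CpG. Methylation of these windows was not measured in the file. Searched on both strands were TGACGTCA, the full cAMP response element, TGCGTCA, a shorter version of it, and CACGTG, an E-box, and none of these motifs contains another. They were present in 1.55%, 1.75% and 6.02% of all windows, respectively. Cck and Tac1 held both TGCGTCA and CACGTG, Sst held TGACGTCA, and the other 6 genes held no exact match to these motifs. The 3 windows are shown 5′ to 3′ on the strand of the gene, with the matched motifs in capitals, because they set a gene at 48.8 RPKM in Dnmt1-/- beside a pair of genes with the same or a related motif that were at 0 in that library. They are at chr9:121495695-121495944 (minus strand), chr6:7554811-7555060 (plus strand) and chr16:23890845-23891094 (minus strand).
Cck: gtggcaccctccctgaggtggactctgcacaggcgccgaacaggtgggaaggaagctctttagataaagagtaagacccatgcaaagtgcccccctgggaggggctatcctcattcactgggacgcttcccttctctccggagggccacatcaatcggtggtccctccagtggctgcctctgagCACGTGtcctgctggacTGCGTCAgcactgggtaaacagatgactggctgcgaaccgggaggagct
Tac1: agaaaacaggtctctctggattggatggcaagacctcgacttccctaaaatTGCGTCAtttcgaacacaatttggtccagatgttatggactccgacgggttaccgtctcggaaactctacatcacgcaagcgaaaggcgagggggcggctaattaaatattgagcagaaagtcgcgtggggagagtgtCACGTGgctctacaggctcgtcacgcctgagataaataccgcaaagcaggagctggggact
Sst: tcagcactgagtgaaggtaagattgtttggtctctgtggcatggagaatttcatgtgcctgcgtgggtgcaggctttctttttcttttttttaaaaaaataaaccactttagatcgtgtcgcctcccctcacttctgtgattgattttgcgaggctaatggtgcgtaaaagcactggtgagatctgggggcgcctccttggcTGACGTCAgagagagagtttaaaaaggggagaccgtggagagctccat

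In Cck the TGCGTCA motif begins 49 bases before the start and the E-box 66 bases before it. In Tac1 the same motifs begin 199 and 61 bases before the start, and in Sst the TGACGTCA motif begins 48 bases before it. A match describes these letters and does not show that a factor binds there. Near matches were not counted. For example, the Vip window and both Adcyap1 windows hold TGACGTCT, which differs from TGACGTCA in 1 letter. The lack of an exact match thus does not show that a gene has no related element. Factors that bind the E-box were not examined. Among 14 genes of the cAMP response and of repression through RE1 elements (sites that silence neuronal genes outside neurons) all 14 were kept, none was more than 2-fold higher and 4 were more than 2-fold lower in Dnmt1-/-. The shares over all kept genes were 8.47% higher and 10.9% lower, with a median change of -0.14. Creb1, the main cAMP response factor, was at 7.91 and 3.57 RPKM, its relative Atf2 at 15.96 and 5.45, and Atf1 at 28.8 and 39.3. Rest, the repressor that recognises RE1 elements, was at 14.9 RPKM in Dnmt1+/+ and 16.7 in Dnmt1-/-. Kdm1a, a histone demethylase of the Rest corepressor complex, was at 35.7 and 17.0, and Rcor2, another corepressor, at 12.3 and 5.93 RPKM. With changes centred on the median gene, 1 of the 4, Atf2, was still more than 2-fold lower. The median change of the 14 was -0.22.

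The surroundings of Cck were examined next, to see whether higher RNA extended beyond the gene. No unnamed entry lay within 20 kb of it. The nearest named entry, Trak1, which encodes an adaptor for mitochondrial transport, ends 14.9 kb away and was at 13.6 RPKM in Dnmt1+/+ and 7.76 in Dnmt1-/-. Beyond it Ulk4, a kinase gene, was at 0.452 and 0.473 RPKM. On the other side Lyzl4, a lysozyme-like gene, was listed at 0 and had 0.0136 RPKM. The second gene on this side, Vipr1, begins 147 kb from the Cck entry and had 0.0627 RPKM in Dnmt1+/+ and 1.26 in Dnmt1-/-, a change of 3.06. Vipr1 encodes a receptor for the products of Vip and Adcyap1, whose own RNA was at 0 in Dnmt1-/-. Within 500 kb of the start of Cck lay 17 other named entries, of which 9 were kept, 2 were more than 2-fold higher (Vipr1 and 1700048O20Rik, from 0.110 to 2.42 RPKM) and none was more than 2-fold lower, where 8.47% of all kept genes were higher. Both of the higher genes passed the filter only through Dnmt1-/-, so their direction was set by it, and Vipr1 was not kept with a mean RPKM of at least 1. Around Penk there was likewise no unnamed entry within 20 kb, and its nearest named entries, Sdr16c6 and Sdr16c5, were at 0 RPKM in Dnmt1-/-, the first in both libraries and the second after 0.0173 RPKM in Dnmt1+/+. Impad1, the nearest on the other side at 624 kb, was at 19.5 and 9.08 RPKM, and the next, 4930423M02Rik, was listed at 0 in both. Of 7 other named entries within 500 kb of the start of Penk 4 were kept, with Lyn, a tyrosine kinase gene, higher at 1.69 and 5.13 RPKM and Plag1, a zinc finger gene, lower at 1.27 and 0.42.

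**Figure D2:**
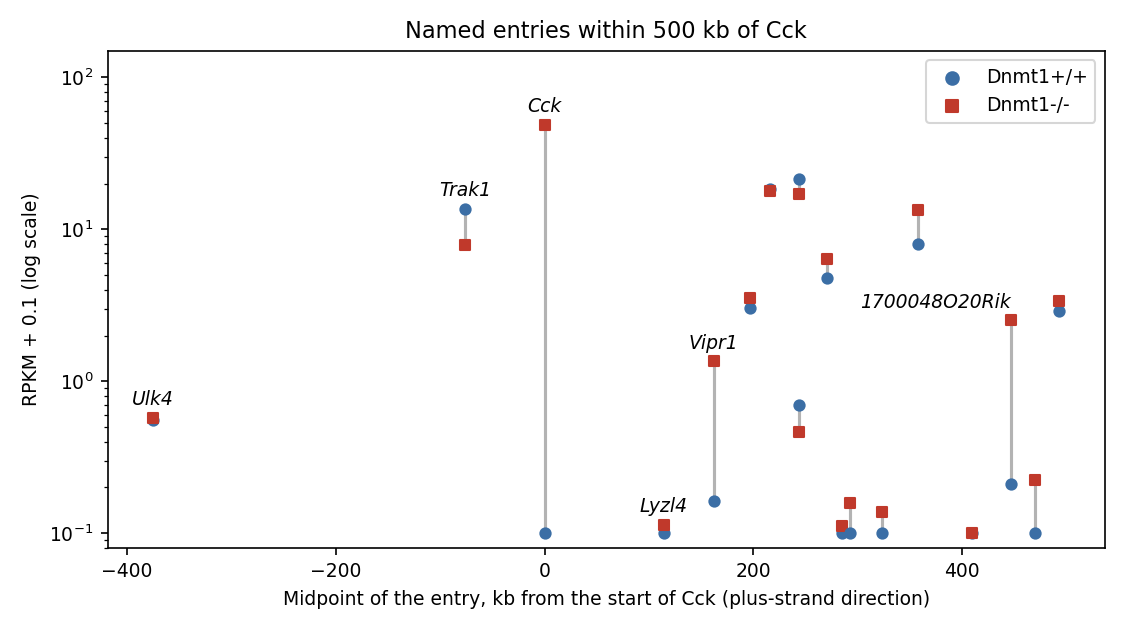
RPKM + 0.1 on a log scale for Cck and the 17 other named entries within 500 kb of its start, placed by the distance of their midpoint from the start of Cck in kb, in Dnmt1+/+ (circles) and Dnmt1-/- (squares). Cck and Vipr1 stand out with higher values in Dnmt1-/-, together with 1700048O20Rik, whereas Trak1 next to Cck is at 13.6 and 7.76 RPKM.

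To see whether other peptide genes shared the pattern of Cck, 52 further precursors of neuropeptides and peptide hormones were listed. Of these, 36 were below 0.1 RPKM in both libraries and 5 were kept, 3 of them past 2-fold in the higher direction and 1 in the lower. The shares over all kept genes were 8.47% higher and 10.9% lower. Nppb and Adm2 passed the filter only through Dnmt1-/-. The median change of the 5 kept genes was 1.05, but it was -0.055 without the filter on low RPKM, so no direction is given for these precursors as a class. Most of the 5 are known for actions on vessels and the heart rather than as neurotransmitters. Nppb, encoding B-type natriuretic peptide, had 4.85 RPKM in Dnmt1-/- and was listed at 0 in Dnmt1+/+. Adm2, encoding adrenomedullin 2, was at 0.251 and 2.63 RPKM, a change of 2.96, and Apln, the precursor of apelin, was at 3.89 and 8.16 RPKM, a change of 1.05. The 1 lower gene was Edn1, the precursor of the vasoconstrictor endothelin 1, at 4.31 and 1.79 RPKM, a change of -1.22. Adm, encoding the vasodilator adrenomedullin, was at 37.5 and 31.8 RPKM and stayed within 2-fold. Gast, encoding gastrin, the closest relative of cholecystokinin, was listed at 0 in both libraries.

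Over all 62 precursor genes, 44 were below 0.1 RPKM in both libraries. At least 1 RPKM was reached by 3 in Dnmt1+/+ and by 7 in Dnmt1-/-. The 7 include Cck, chosen for its rise, and Penk, Nppb and Adm2, which reached this level only in Dnmt1-/-. How many of all named entries reached 1 RPKM in each library was not counted, so no direction is given for the class. The highest precursor gene was Adm in Dnmt1+/+ and Cck in Dnmt1-/-, where Adm came second. No further precursor reached the level of Cck in either library.

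**Figure D3:**
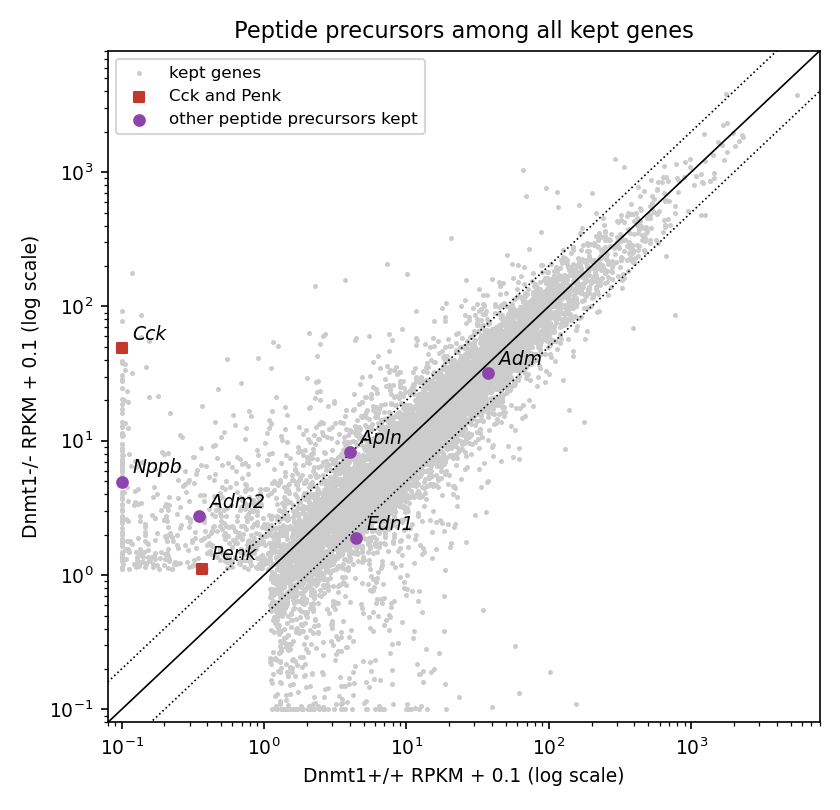
RPKM + 0.1 in Dnmt1+/+ (x axis) and Dnmt1-/- MEFs (y axis), both on log scales, for the 11244 kept genes (grey), with Cck and Penk (squares) and the 5 other kept peptide precursors (circles). The solid line marks equal values and the dotted lines 2-fold, and Cck and Nppb lie at the left edge, where genes are listed at 0 in Dnmt1+/+.

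The receptors of the 10 peptides were largely silent in both libraries. Of 32 receptor genes 31 were found (Mc4r was not analysed here), 24 of these were below 0.1 RPKM in both libraries and 15 were listed at 0 in both. Cckar and Cckbr, the receptors for cholecystokinin, were listed at 0 in both libraries, and so were Oprm1, Oprd1 and Oprk1, the opioid receptors. Of 4 entries kept, 1 was more than 2-fold higher (Vipr1), and this entry too passed the filter only through Dnmt1-/-. The shares over all kept genes were 8.47% higher and 10.9% lower. The 1 entry that was more than 2-fold lower joins Galr3, a galanin receptor, with its neighbour Gcat, at 32.8 and 12.0 RPKM, and its reads cannot be assigned to either gene. Npy1r, a receptor for neuropeptide Y, was at 1.19 and 1.10 RPKM, and Sort1, which also binds neurotensin, was at 9.20 and 7.33 RPKM. The median change of the 4 entries was -0.22, and it was -0.11 with the joined entry left out and -0.073 without the filter on low RPKM.

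The enzymes that turn a precursor into an active peptide were unevenly present. Of 17 genes 9 were kept, 1 was more than 2-fold higher and none more than 2-fold lower, with a median change of 0.23. Without the filter on low RPKM 2 were higher and 2 lower, and the median was -0.021. The dedicated convertase Pcsk1 was listed at 0 in both libraries and Pcsk2 was at 0.0473 RPKM in Dnmt1+/+ and 0 in Dnmt1-/-. Pcsk5 was listed at 0 in both libraries despite its status OK. The widely expressed convertase gene Furin was at 12.0 and 14.0 RPKM. Later steps were well represented, as Cpe, the carboxypeptidase, was at 329 and 319 RPKM and Pam, the amidating enzyme, at 50.6 and 49.5. Tyrosine sulfation, which cholecystokinin needs for full activity at one of its receptors, is carried out by Tpst1 and Tpst2. Tpst2 was at 21.9 and 27.5 RPKM, and the entry that joins Tpst1 with Crcp was at 35.1 and 34.5. The 1 gene more than 2-fold higher was Cpz, a secreted carboxypeptidase, at 0.156 and 3.14 RPKM, a change of 3.66, and it passed the filter only through Dnmt1-/-.

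Of 12 granins and other dense core vesicle genes only 2 were kept, and both were more than 2-fold lower in Dnmt1-/- MEFs. Vgf, encoding a granin-like secretory protein, was at 2.30 and 0.274 RPKM, a change of -2.69. Ptprn, encoding a membrane protein of secretory vesicles, was at 12.0 and 4.12 RPKM, a change of -1.52. The median of the pair was -2.10. Of all kept genes 10.9% were more than 2-fold lower. Without the filter on low RPKM 1 gene of this list was higher and 3 were lower, with a median change of 0. No direction is therefore given for vesicle genes as a class. Chga, encoding chromogranin A, was listed at 0 and had 0.0299 RPKM in Dnmt1-/-, Chgb was at 0.052 and 0.0173, and Scg2 was listed at 0 and had 0.348 RPKM. These 3 granin genes thus stayed below 1 RPKM in the library with 48.8 RPKM of Cck.

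Among 15 enzymes that degrade peptides, most of them at the cell surface, 10 were kept, none was more than 2-fold higher and 3 were more than 2-fold lower, with a median change of -0.43. Of all kept genes 8.47% were higher and 10.9% lower by more than 2-fold, with a median change of -0.14. Mme, encoding neprilysin, which cleaves enkephalins, tachykinins and natriuretic peptides, was at 5.83 and 0.0686 RPKM, a change of -5.14. Anpep, encoding aminopeptidase N, was at 1.49 and 0.221 RPKM, a change of -2.31. Ece1, encoding an endothelin-converting enzyme, was at 14.9 and 7.22 RPKM, a change of -1.04. The last of these was no longer past 2-fold with changes centred on the median gene. Anpep was not kept with a mean RPKM of at least 1, where 2 of the list were lower. Thop1, encoding an oligopeptidase that is mainly intracellular, was at 42.6 and 42.0 RPKM.

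**Figure D4:**
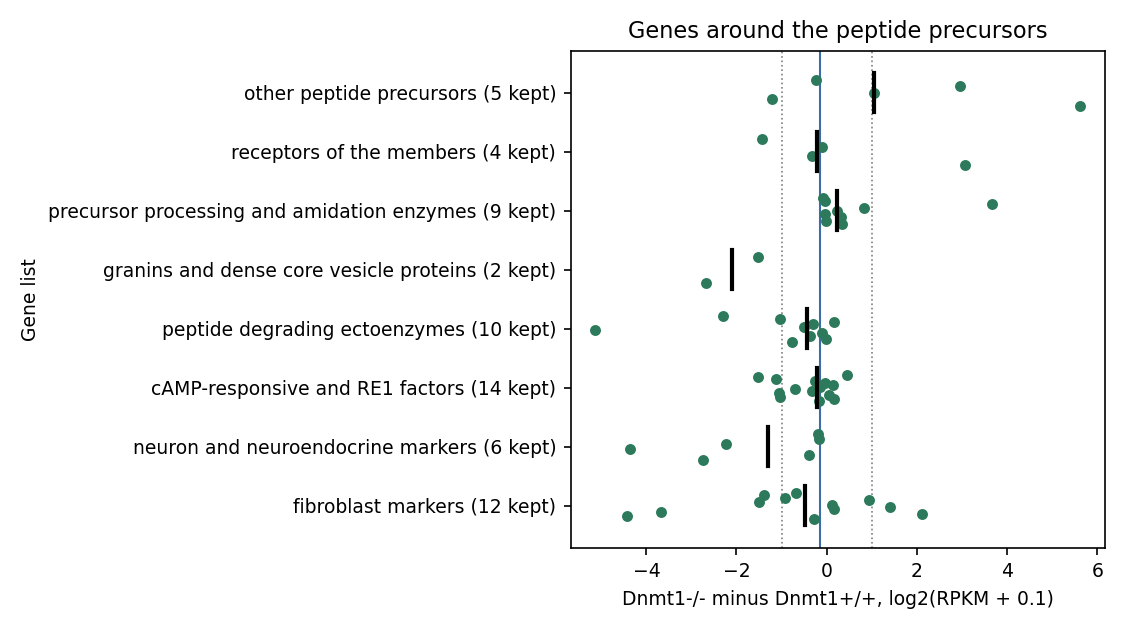
Change from Dnmt1+/+ to Dnmt1-/- MEFs on the log2(RPKM + 0.1) scale (x axis) of each kept entry (points) in 8 gene lists (y axis), with the median of a list as a black bar, the median of all kept genes as a blue line and 2-fold as dotted lines. The 5 other peptide precursors reach farthest to the right, at Nppb, which is listed at 0 in Dnmt1+/+, and both vesicle genes lie left of the lower dotted line. The position of a gene listed at 0 depends on the added 0.1 RPKM.

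Markers of neurons and neuroendocrine cells were compared in the same way, since these cells are the usual source of Cck RNA. Of 23 markers 6 were kept, none was more than 2-fold higher and 3 were more than 2-fold lower in Dnmt1-/-. These were Stmn2, a tubulin-binding protein of growing axons, at 2.19 and 0.0108 RPKM, Uchl1, a neuronal ubiquitin hydrolase, at 17.0 and 2.46, and Mtap2 (Map2), a microtubule-associated protein of dendrites, at 7.98 and 1.63. The median change of the 6 was -1.31. Without the filter on low RPKM it was -0.29, with 4 markers lower and 1 higher, Ddc, an enzyme of dopamine and serotonin synthesis, at 0.0879 and 0.908 RPKM. The summed level of the 23 markers was 53.4 RPKM in Dnmt1+/+ and 25.8 in Dnmt1-/-. The largest values in this sum were those of Uchl1, Tubb3 (16.9 and 12.9 RPKM), Mtap2 and Eno2 (6.56 and 5.76 RPKM). The markers Snap25, Rbfox3, Elavl4, Neurod1, Insm1 and Th were listed at 0 in both libraries. Of 7 markers of glia and Schwann cells none was kept, and their sum was 1.37 and 1.02 RPKM. The part of other cell types in the higher Cck RNA of Dnmt1-/- was not tested.

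Finally, the genes whose pair of values was most like that of Cck were sought among all named entries with status OK, by the Euclidean distance over the log2(RPKM + 0.1) values of both libraries. The closest 5 were 3830403N18Rik at 39.2 RPKM in Dnmt1-/-, 1700018B24Rik at 38.7, Tex13 at 37.9, Xist at 37.0 and Tuba3a at 33.7, with distances between 0.31 and 0.54. The first 3 of these were listed at 0 in Dnmt1+/+, and Xist and Tuba3a were at 0.00648 and 0.00555 RPKM. None is a peptide precursor of the lists used here. Xist is the RNA that coats an inactive X chromosome, and the sex of the embryos behind the 2 lines is not given in the sources used here. Tuba3a has a near-identical copy with which reads could be shared, so its value is uncertain.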

How the data were processed

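Strand-specific mRNA-seq libraries, 1 of Dnmt1+/+ and 1 of Dnmt1-/- MEFs, were read as single-end reads of 50 bases. Per the submitters' processing notes and the methods, the authors aligned reads to mm9 (TopHat), built transcripts (Cufflinks) and derived the deposited RPKM values with Cuffdiff, 1 column per library. Program versions, any scaling of the libraries beyond mapped reads, and the use of strand in counting are not given in the sources used here. The file's columns are named for wild-type and knock-out, terms that the study uses for these genotypes.

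Changes are differences of log2(RPKM + 0.1), Dnmt1-/- minus Dnmt1+/+, a scale that shrinks differences between low values. Counts use named entries with status OK and at least 1 RPKM in one library or the other. Genes outside the list of 10 were named if they were among the 4 largest changes past 2-fold in either direction in their list, receptors or neighbours of a gene past 2-fold, or nearest to Cck in values. Genes such as Gast, Rest, Pcsk1, Adm, Col1a1, Vim, the granins and the markers at 0, which fall outside this rule, were named after their values were seen. The 10 genes and all lists were chosen with earlier results of these data known. The step that 1 read makes in RPKM was estimated after the data were seen. It is the median of values in the fullest window between 0.010 and 0.025 RPKM on 1 kb, with lengths from the NCBI37 (GENCODE M1) annotation, which also gave the coordinates. This annotation and mm9 are the same assembly, and all 10 loci matched. Counting and the step estimate were tested on simulated data. Python 3.11.15, numpy 2.4.6, pandas 2.3.3 and matplotlib 3.10.9 were used. Alternatives were pseudocounts of 1 and 0.01, other filters, centring, a 4-fold threshold, any status and joined entries left out.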

Additional observations from a re-analysis of the deposited data

How the results depend on the processing

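With 1 library per genotype and no counts, neither a replicate nor a counting error is available, and a difference of a few reads is not detectable. No paired analysis was possible because each genotype has 1 library. The number of neuropeptide genes more than 2-fold higher, 2, was 1 with a pseudocount of 1, with a mean RPKM of at least 1 and with a 4-fold threshold, where in each case Penk was lost and Cck was left. It was 2 with a pseudocount of 0.01, without a filter, after centring, with any status and with joined entries left out. The number lower was 0 in all 8 alternatives, but this was fixed in advance. The setting without a filter still required the status OK, and that with any status still required 1 RPKM. The 8 genes with the status NOTEST could therefore not be counted in any setting. Over the 6 lists of precursors, receptors, enzymes, vesicle proteins and factors, 44 entries were kept, 5 higher and 11 lower, with a median change of -0.13. Without a filter 74 entries were kept, 10 higher and 15 lower. The number lower was 7 with a pseudocount of 1, 7 after centring and 3 with a 4-fold threshold, and the median after centring was 0.015. The median of the 52 further precursors turned from 1.05 to -0.055 without a filter, which adds genes below 1 RPKM, and that of the processing enzymes from 0.23 to -0.021. Of 18 genes followed singly none changed direction, but this was fixed in advance. Among the alternatives only centring can change a sign, the median it subtracts is -0.14, and all 18 genes were past 2-fold. Past 2-fold was lost by 6 with a pseudocount of 1 (Penk, Apln, Edn1, Ece1, Creb1 and Rcor2) and by 4 after centring (Ece1, Creb1, Kdm1a and Rcor2). The 4-fold threshold was not reached by 9 of the 18 (Penk, Apln, Edn1, Ptprn, Ece1, Creb1, Atf2, Kdm1a and Rcor2). Penk, Vipr1 and Anpep were not kept with a mean RPKM of at least 1. Leaving out joined entries was chosen after seeing the data.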

Other observations

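The pattern of Cck, listed at 0 in one library and well expressed in the other, was uncommon and uneven between the libraries. Among named entries with status OK, 11 were listed at 0 in Dnmt1+/+ and had at least 20 RPKM in Dnmt1-/-, and none showed the opposite. Besides Cck these were Rpl39l at 92.7 RPKM, Fmr1nb at 77.9, 3830403N18Rik, 1700018B24Rik, Tex13, Cox7b2 at 30.6, Cntn3 at 28.6, Herc3 at 27.7, the imprinted RNA H19 at 24.4 and Nxf3 at 20.4. At a level of at least 10 RPKM the numbers were 20 and 5. Rpl39l is a close copy of a ribosomal protein gene and could share reads with it.

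Some genes of the peptide lists stayed below 1 RPKM and were counted only without the filter on low RPKM, but differed in value. Ace, the angiotensin-converting enzyme, was at 0.0675 RPKM in Dnmt1+/+ and 0.728 in Dnmt1-/-. In the opposite direction, Adcyap1r1, the receptor that prefers the product of Adcyap1, was at 0.757 and 0.0205 RPKM, and Qpct, which forms the N-terminal pyroglutamate of peptides such as neurotensin, was at 0.749 and 0.0827. These were picked after their values were seen.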
